A study of Mus musculus with 12 samples.

Results

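The 10 genes described here belong to the endoplasmic reticulum (ER) stress response and its chaperones, and they were compared between 6 spontaneous lung tumours and 6 normal lungs. They are the chaperone genes Hspa5, Hsp90b1, Calr, Pdia4 and Dnajb9, the degradation gene Herpud1, the transcription factor genes Xbp1, Atf4 and Ddit3, and the pseudokinase gene Trib3. They were chosen by name and are 10 of 18193 genes with a single symbol in the platform annotation. Where a gene had several probe sets, the brightest on average over the 12 arrays stood for it, and together the genes have 24 of 45037 probe sets. Each sample was measured on 1 Affymetrix mouse array as biotin-labelled product. The tumours arose spontaneously in untreated B6C3F1 mice aged 2 years on a long-term bioassay, and the normal lungs came from mice of the same strain and age. B6C3F1 mice are first-generation hybrids of the C57BL/6 and C3H strains. The labels name no transgene and state that no treatment was performed. Separate animals are not stated by the labels, and the p-values therefore cover only the spread among these 12 samples, which may be technical.

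Proteins that enter the secretory pathway fold in the ER, where chaperones bind unfolded chains and disulfide isomerases join cysteines. When unfolded chains accumulate, the sensors PERK, IRE1 and ATF6 start the unfolded protein response. PERK phosphorylates the initiation factor eIF2, which slows translation in general but favours that of Atf4 mRNA, and ATF4 then activates genes such as Ddit3 and Trib3. IRE1 splices Xbp1 mRNA into the form that encodes an active factor, and ATF6 is released from the ER by cleavage. XBP1 and ATF6 activate chaperone and degradation genes. Alveolar type II cells, which secrete surfactant proteins, and plasma cells are lung cells with a large ER. The arrays measure the amount of mRNA, so neither the splicing of Xbp1 nor the translation of Atf4 was measured here.

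The promoters of the members show which of them carry the binding letters of these factors. The ER stress response element, abbreviated ERSE, is the word CCAAT followed after a gap of 9 bases by CCACG, and a second form, ERSE-II, is ATTGG followed after a gap of 1 base by CCACG. Both are bound by ATF6 together with NF-Y. The core letters TGATGCAA, bound by ATF4 with C/EBP factors, and TGACGTGG, bound by XBP1 and ATF6, were searched as well, always on both strands of 300 bases around each RefSeq gene start. All 10 members had a promoter in RefSeq (GRCm38.p6). ERSE letters were present in 0.119% of 32851 promoters and in those of Hspa5, Hsp90b1 and Calr. ERSE-II letters were present in 0.0365% of promoters and in that of Herpud1, which also held the ATF4 core, present in 0.895%. The XBP1 core was present in 0.676% of promoters and in no member. No match says only that these letters are not in this window. The 250 bases before the start are given for the 4 members with a match and for Ddit3 and Pdia4, the members with the largest differences, in which none of the motifs matched. Capitals mark the matches, which do not overlap each other.
Hspa5: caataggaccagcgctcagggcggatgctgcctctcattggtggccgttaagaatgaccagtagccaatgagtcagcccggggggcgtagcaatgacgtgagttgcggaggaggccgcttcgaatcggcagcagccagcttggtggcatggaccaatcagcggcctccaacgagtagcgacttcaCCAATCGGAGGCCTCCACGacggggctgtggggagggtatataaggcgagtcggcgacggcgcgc
Hsp90b1: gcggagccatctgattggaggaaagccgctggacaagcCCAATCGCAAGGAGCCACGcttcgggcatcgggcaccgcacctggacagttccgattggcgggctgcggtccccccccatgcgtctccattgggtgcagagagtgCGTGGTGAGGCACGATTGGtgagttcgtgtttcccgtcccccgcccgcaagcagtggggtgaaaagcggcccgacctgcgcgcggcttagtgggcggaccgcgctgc
Calr: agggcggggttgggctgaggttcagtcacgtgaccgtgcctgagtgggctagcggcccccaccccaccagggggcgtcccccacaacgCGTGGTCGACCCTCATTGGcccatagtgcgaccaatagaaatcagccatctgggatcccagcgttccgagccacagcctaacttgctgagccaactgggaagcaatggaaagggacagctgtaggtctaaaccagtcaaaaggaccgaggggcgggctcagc
Herpud1: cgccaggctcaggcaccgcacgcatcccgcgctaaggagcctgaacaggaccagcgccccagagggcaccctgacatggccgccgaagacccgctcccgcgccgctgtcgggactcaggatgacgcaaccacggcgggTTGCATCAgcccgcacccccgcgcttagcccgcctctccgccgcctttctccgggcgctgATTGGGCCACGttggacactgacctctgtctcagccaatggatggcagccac
Ddit3: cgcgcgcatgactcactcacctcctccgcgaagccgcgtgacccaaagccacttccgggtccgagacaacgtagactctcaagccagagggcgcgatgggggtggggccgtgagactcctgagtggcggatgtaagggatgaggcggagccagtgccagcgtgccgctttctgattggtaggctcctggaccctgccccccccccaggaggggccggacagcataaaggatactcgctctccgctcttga
Pdia4: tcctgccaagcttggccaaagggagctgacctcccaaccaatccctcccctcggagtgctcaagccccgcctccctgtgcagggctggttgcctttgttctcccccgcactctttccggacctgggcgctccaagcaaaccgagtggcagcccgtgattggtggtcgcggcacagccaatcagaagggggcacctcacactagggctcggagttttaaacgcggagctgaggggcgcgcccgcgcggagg

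These stretches read 5′ to 3′ on the gene's own strand. That of Hspa5 lies at chr2:34771840-34772089 on the plus strand, that of Hsp90b1 at chr10:86705445-86705694 on the minus strand and that of Calr at chr8:84846932-84847181 on the minus strand. That of Herpud1 lies at chr8:94386179-94386428 on the plus strand, that of Ddit3 at chr10:127290543-127290792 on the plus strand and that of Pdia4 at chr6:47813513-47813762 on the minus strand. Relative to the gene start, the ERSE letters of Hspa5 span bases -65 to -47 in forward orientation. Hsp90b1 has a forward match at -212 to -194 and a reverse match at -107 to -89. Calr has a reverse match at -162 to -144. In Herpud1 the ERSE-II letters span -52 to -42 and the ATF4 core, in reverse orientation, -112 to -105.

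Several facts of the arrays bear on every result. The authors' scaling gave all arrays the same trimmed mean, but the median signal was 126 to 150 in tumours and 151 to 164 in normal lungs (exact permutation test, two-sided, p = 0.00216, the smallest that 6 against 6 arrays allow, adjusted over 4 array measures 0.00866). Tumours 1, 2, 3 and 5 had Eif2s3y, a Y-linked gene, at 740.5 or more and Xist, the RNA of the inactive X chromosome, at 109.3 or less. Tumours 4 and 6 and all normal lungs had Xist at 7877 or more and Eif2s3y at 27.4 or less. The tumours and normal lungs were therefore not balanced in these sex-linked signals. Hepatocyte markers stood out in normal lungs 2 and 4 (mean log2 signal 9.79 and 10.47, against 5.37 to 7.11 in tumours and 5.74 to 7.88 in the other normal lungs), and neutrophil markers in normal lung 1 (12.94, against 6.92 to 8.18 in tumours and 7.12 to 8.95 in the other normal lungs). Gastric and intestinal markers were highest in tumours 2 and 6. The lung marker Sftpc was at 31265 or more on all 12 arrays. Among all genes, 12.2% passed the threshold upwards and 17.5% downwards, and 41.1% of the calls were higher in tumours, a share that was 59.9% after centring each array on its median. That centring moved the median difference of all genes to 0.11, against -0.08 with the authors' scaling, so small differences are relative to that shift.

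The 10 genes did not move as a block. Pdia4 and Hsp90b1 rose, Ddit3, Herpud1 and Atf4 fell, and Hspa5, Calr, Xbp1, Dnajb9 and Trib3 did not pass the test. Differences give tumours minus normal lungs as log2(signal + 16), ± the standard error with 6 arrays per group, and a gene was called at an adjusted p under 0.05 (limma, Benjamini-Hochberg over all probe sets). In all 2 members were higher, where the background is 12.2%, and 3 were lower, where it is 17.5%. Among the genes brighter than the median probe set, as all 10 members are, these shares were 17.7% and 22.3%. The members' median difference was 0.01, against -0.08 over all genes and -0.01 over the brighter genes. After quantile normalization it was -0.25, against 0.01 over all genes, and after median centring 0.20, against 0.11. The groups did not overlap for 1 member, where the background is 18.5%.

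**Figure D1:**
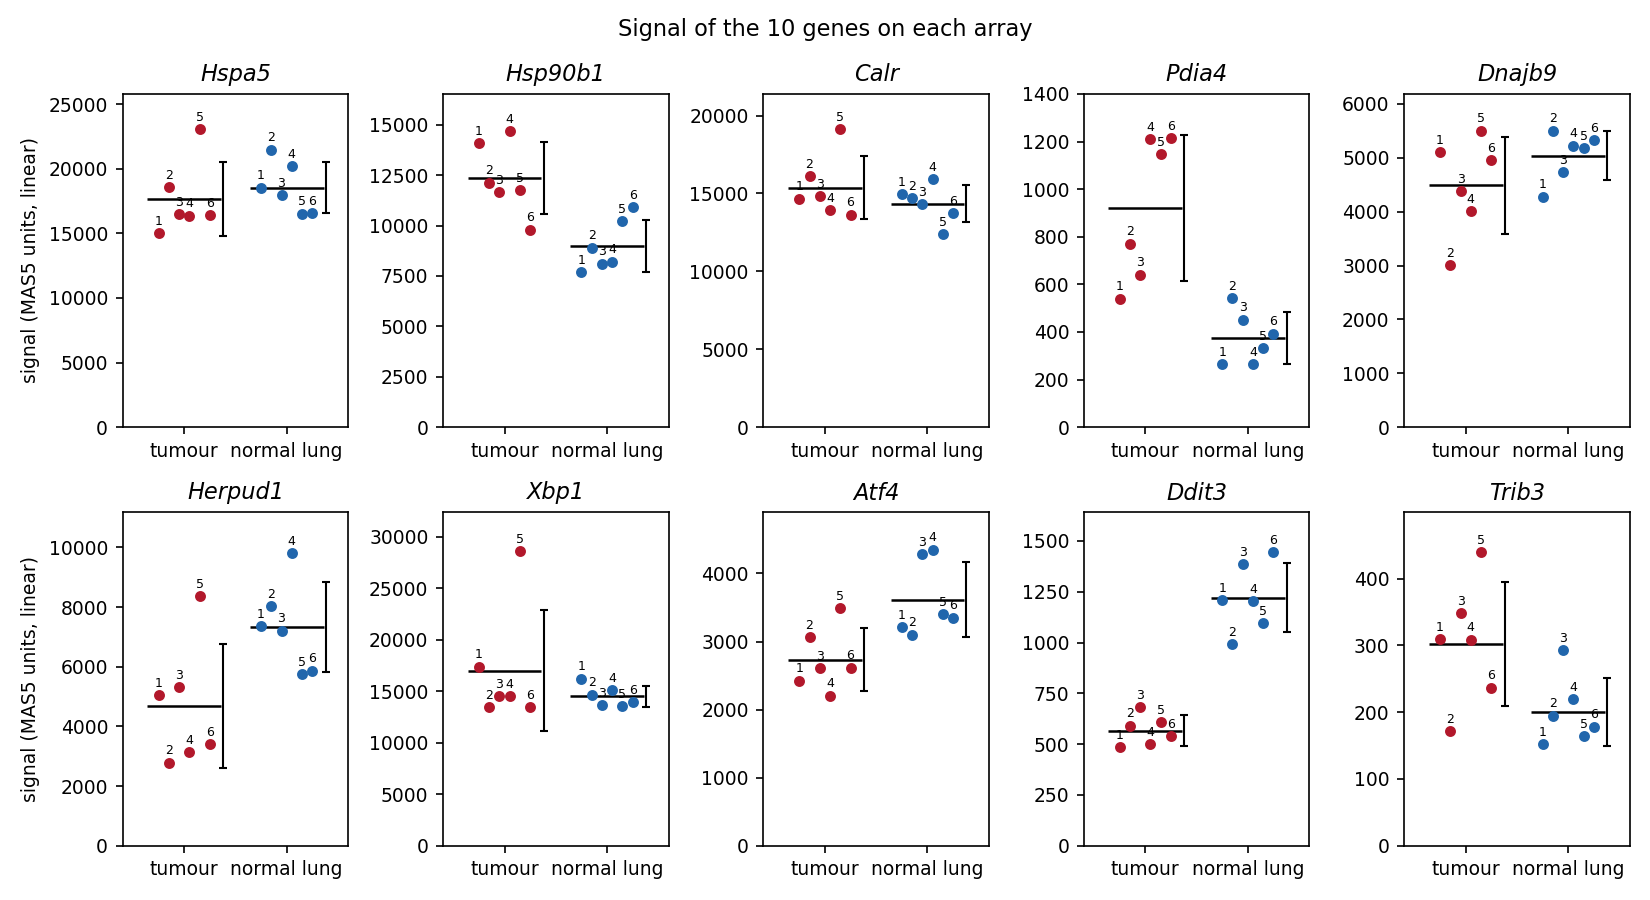
Signal of the 10 genes on each of the 12 arrays, on a linear axis in MAS5 units that starts at 0; points are arrays with their replicate number, lines the group means and bars the SD (n = 6). All 6 Ddit3 points of the tumours lie at 683.1 or less and all 6 of the normal lungs at 990.9 or more, whereas the Hspa5 and Calr points of both groups interleave.

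Of the chaperones, Pdia4 changed most. It encodes an ER disulfide isomerase. Its signal was 539.4, 770.6, 641.3, 1211, 1146 and 1215 in tumours 1 to 6 and 263.4, 542.0, 451.7, 265.2, 331.4 and 393.1 in normal lungs 1 to 6. Tumours 4, 5 and 6 lay at more than 1100, and only tumour 1 reached into the normal range, just under normal lung 2. Pdia4 rose by 1.24 ± 0.24 (adjusted p = 0.00121), which is 2.36-fold with a 95% interval of 1.66 to 3.35. The other Pdia4 probe set was dim, with a mean of 54.2 in tumours and 69.2 in normal lungs, and did not pass (-0.37 ± 0.28, adjusted p = 0.401). When the probe sets of a gene were averaged, the Pdia4 difference was 0.44 (adjusted p = 0.123).

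Hsp90b1 encodes the ER member of the HSP90 chaperone family. Its signal was 14080, 12127, 11655, 14691, 11764 and 9802 in tumours 1 to 6 and 7671, 8903, 8104, 8203, 10208 and 10912 in normal lungs 1 to 6. All tumours but tumour 6 exceeded every normal lung. Hsp90b1 rose by 0.46 ± 0.13 (adjusted p = 0.0213), a 1.37-fold difference. The other probe set gave 0.32 ± 0.13 (adjusted p = 0.0891). The call was lost without normal lung 1 (0.41, adjusted p = 0.0515), normal lung 4 (0.43, 0.0501) or tumour 4 (0.40, 0.0510). It was also lost after quantile normalization (0.23, adjusted p = 0.290), without normal lungs 2 and 4 (0.42, 0.0978) and in tumours 4 and 6 alone (0.43, 0.183), and with Eif2s3y as a covariate (0.41, 0.163).

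Hspa5 encodes BiP, the ER chaperone of the HSP70 family that also holds the stress sensors inactive. Its signal was 15015, 18574, 16482, 16371, 23058 and 16396 in tumours 1 to 6 and 18523, 21474, 17936, 20222, 16510 and 16538 in normal lungs 1 to 6. Tumour 5 lay above every normal lung, 4 tumours lay below every normal lung, and tumour 2 within their range. Tumours 3, 4 and 6 were only just under the lowest normal lung (16510). The difference was -0.08 ± 0.13 with a 95% interval of -0.37 to 0.21 (adjusted p = 0.734), which in folds is 0.776 to 1.16. The other Hspa5 probe sets gave 0.20 ± 0.13 and 0.02 ± 0.13, neither past the threshold, with 0 and 1 tumours below every normal lung. Quantile normalization gave -0.41 (adjusted p = 0.0121), and median centring 0.11.

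Calr encodes calreticulin, a lectin chaperone that binds calcium. Its signal ranged from 13648 to 19131 with a median of 14741 in tumours, and from 12385 to 15925 with a median of 14510 in normal lungs. Most tumours lay within the normal range, and tumours 2 and 5 above it. The difference was 0.10 ± 0.12 with a 95% interval of -0.16 to 0.35 (adjusted p = 0.629). All 3 Calr probe sets had differences between 0.10 and 0.25, none past the threshold. Calr was at -0.16 after quantile normalization and 0.29 after median centring.

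Dnajb9 encodes ERdj4, a co-chaperone of BiP and a known target of XBP1. Its signal ranged from 3011 to 5505 in tumours and from 4281 to 5506 in normal lungs. Tumours 2 and 4 lay below every normal lung and the other 4 within their range. The difference was -0.19 ± 0.14 with a 95% interval of -0.49 to 0.11 (adjusted p = 0.387), and it rests on the only Dnajb9 probe set.

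Herpud1 encodes an ER membrane protein of the degradation complex that removes misfolded proteins. Its signal was 5049, 2778, 5326, 3138, 8361 and 3401 in tumours 1 to 6 and 7370, 8027, 7210, 9811, 5743 and 5869 in normal lungs 1 to 6. Tumour 5 lay within the normal range and the other 5 tumours below it, with tumours 2, 4 and 6 lowest. Herpud1 fell by 0.73 on the log2 scale (-0.73 ± 0.24, adjusted p = 0.0356). The other probe set gave -0.56 ± 0.25 (adjusted p = 0.134). The call was lost without any of normal lungs 1 to 4 or tumours 2, 4 and 6, with differences of -0.60 to -0.73 and adjusted p from 0.0607 to 0.0827. It was also lost after median centring (-0.54, adjusted p = 0.111), without the intensity trend (-0.73, 0.0599) and for the mean of its probe sets (-0.64, 0.0678), while quantile normalization gave -0.87 (0.00975). Leaving out tumours 2 and 6 gave -0.48 (adjusted p = 0.140), and leaving out normal lungs 2 and 4 gave -0.58 (adjusted p = 0.174).

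Of the transcription factors, Ddit3 changed most, with lower signal in all 6 tumours than in any normal lung. It encodes CHOP, a C/EBP family factor that promotes cell death in prolonged ER stress. Its signal was 483.4, 591.4, 683.1, 498.2, 607.5 and 537.4 in tumours 1 to 6 and 1207, 990.9, 1385, 1203, 1095 and 1445 in normal lungs 1 to 6. Every tumour lay below every normal lung, and the range within each group was narrow, the highest being 1.41 times the lowest in tumours and 1.46 times in normal lungs. Ddit3 fell by 1.08 on the log2 scale (-1.08 ± 0.13, adjusted p = 1.77e-05), so that normal lungs had 2.12 times the level of tumours. With any 1 array left out the difference was -1.14 to -1.03 (adjusted p at most 8.98e-05), and in tumours 4 and 6 alone -1.20.

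The other Ddit3 probe set pointed the opposite way without passing the threshold. Its signal ranged from 102.2 to 251.6 in tumours and from 13.6 to 179.3 in normal lungs, and the difference was 0.93 ± 0.38 (adjusted p = 0.0888). It was dimmer than the main probe set on every array. Averaged over both probe sets, the Ddit3 difference was -0.07 (adjusted p = 0.822), so the fall of Ddit3 rests on the brighter probe set. Which part of the transcript each probe set matches was not analysed here.

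**Figure D2:**
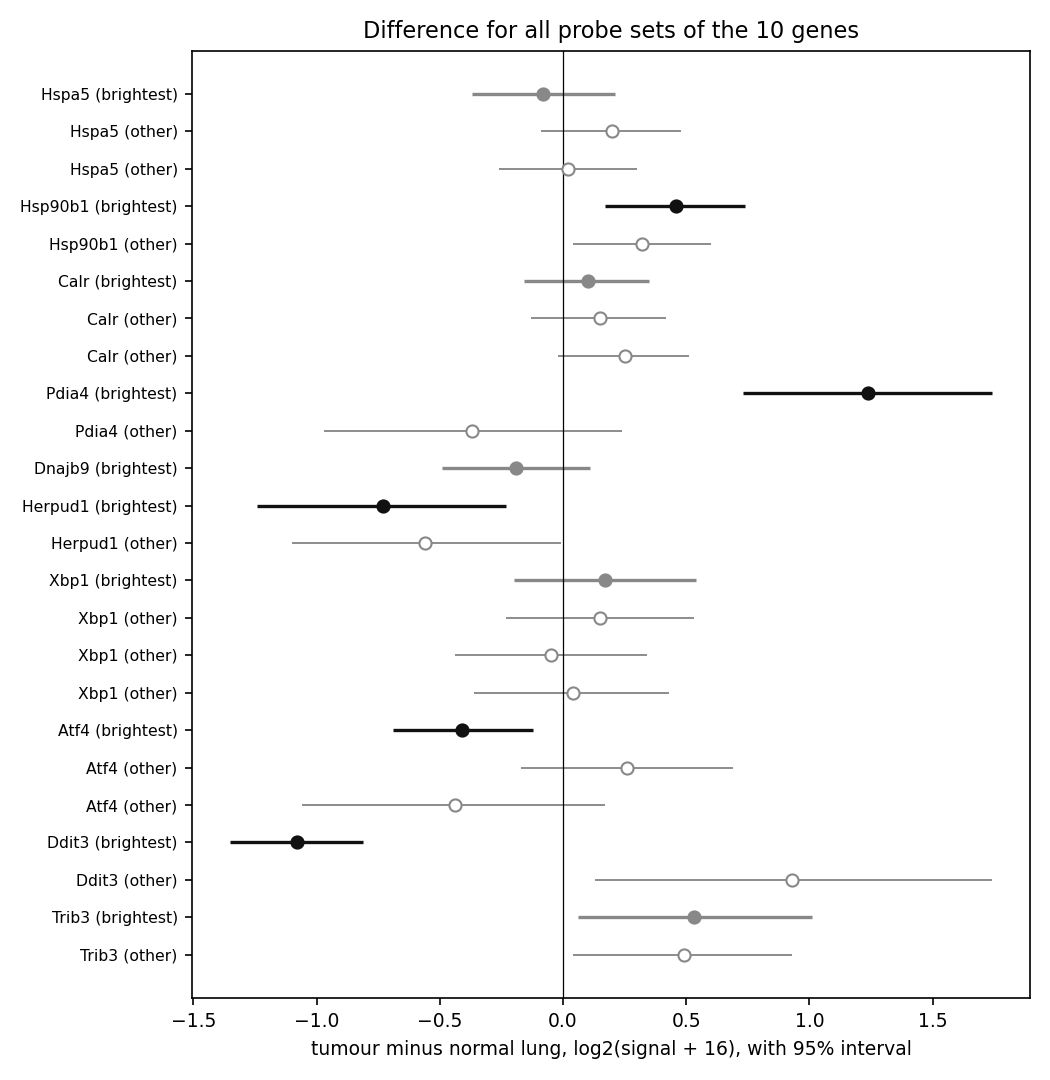
Differences of all 24 probe sets of the 10 genes, tumours minus normal lungs, as log2(signal + 16); filled circles are the brightest probe set of each gene, open circles the others, bars 95% intervals, and black marks an adjusted p under 0.05. The 5 called probe sets are all the brightest of their gene. Among the called genes, the other probe sets of Ddit3 and Pdia4 and the brighter of the others of Atf4 (0.26) lie on the opposite side of 0.

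Atf4 encodes the factor that PERK signalling induces through translation. Its signal was 2423, 3060, 2606, 2202, 3489 and 2616 in tumours 1 to 6 and 3208, 3103, 4284, 4350, 3400 and 3351 in normal lungs 1 to 6. Tumour 5 was within the normal range and the other 5 tumours below it. Atf4 fell by 0.41 on the log2 scale (-0.41 ± 0.13, adjusted p = 0.0390). A second probe set of the type that can match other transcripts, marked x in its name, gave 0.26 ± 0.20. The second Trib3 probe set, the dimmest of Hspa5 and those of Calr other than the brightest are also of this type. The remaining Atf4 probe set, at 66.6 or less on every array, gave -0.44 ± 0.29, and neither of these Atf4 differences passed the threshold. The call was lost without any of normal lungs 3 to 6 or tumours 1, 3, 4 and 6, with differences of -0.42 to -0.35 and adjusted p from 0.0529 to 0.0926. It was also lost after median centring (-0.22, adjusted p = 0.343), without the intensity trend (-0.41, 0.0815), for the mean of its probe sets (-0.20, 0.349) and without normal lungs 2 and 4 (-0.39, 0.104).

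Xbp1 encodes the factor that IRE1 activates by splicing its mRNA. Its signal was 17378, 13480, 14489, 14513, 28590 and 13454 in tumours 1 to 6 and 16209, 14659, 13667, 15102, 13562 and 13930 in normal lungs 1 to 6. Tumour 5 stood apart from the 11 other arrays, which lay between 13454 and 17378. The difference was 0.17 ± 0.17 with a 95% interval of -0.20 to 0.54 (adjusted p = 0.534), and 0.01 without tumour 5 (adjusted p = 0.963). Tumour 5 was also the highest of all arrays on 2 of the 3 other Xbp1 probe sets, at 22896 and 8116. On the dimmest it was at 308.6, within the normal range.

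Trib3 encodes a pseudokinase induced by ATF4 and CHOP. Its signal was 309.2, 171.1, 348.1, 308.8, 439.9 and 236.6 in tumours 1 to 6 and 152.2, 195.0, 292.8, 219.1, 163.8 and 178.5 in normal lungs 1 to 6. Tumours 1, 3, 4 and 5 exceeded every normal lung, while tumours 2 and 6 lay within the normal range. The difference was 0.53 ± 0.22 (adjusted p = 0.0998), and the second probe set gave 0.49 ± 0.21 (adjusted p = 0.108). Trib3 passed the threshold without tumour 2 (0.68, adjusted p = 0.0236), without tumours 2 and 6 (0.78, 0.00956), after quantile normalization (0.69, 0.0288), after median centring (0.72, 0.0220), with array weights (0.61, 0.0377) and for the mean of its probe sets (0.51, 0.0357).

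**Figure D3:**
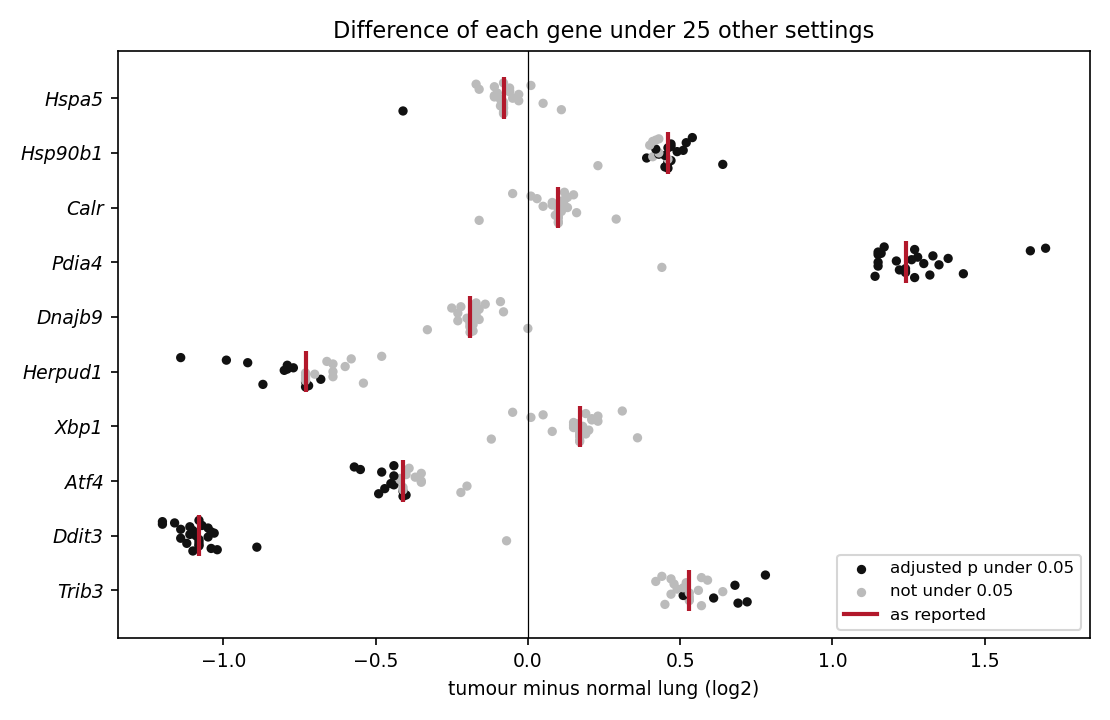
Tumour minus normal lung difference (log2) of each gene under 25 other settings, with points in black where the adjusted p was under 0.05, in grey where it was not, and a red line at the reported value. The Ddit3 and Pdia4 points lie between -1.20 and -0.89 and between 1.14 and 1.70, apart from the mean of the probe sets at -0.07 and 0.44, while the points of Hspa5, Calr and Xbp1 fall on both sides of 0.

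The tumours differed from each other in these genes. On the brightest probe sets, tumour 5 had the highest signal of the 6 tumours for 7 of the 10 genes, where 20.2% of all genes were highest in that tumour. These were Hspa5, Calr, Dnajb9, Herpud1, Xbp1, Atf4 and Trib3. The other probe sets of Calr and Herpud1 were again highest in tumour 5, but those of Hspa5, Atf4 and Trib3 were not. Hspa5 had 8384 in tumour 6 against 7809 in tumour 5 on the brighter of its others. Atf4 had 1655 in tumour 1 against 1515, and Trib3 339.5 in tumour 3 against 297.7. On the brightest probe sets, differences of tumour 5 from the mean of the normal lungs were 0.32 for Hspa5, 0.42 for Calr, 0.98 for Xbp1, 1.11 for Trib3 and 1.62 for Pdia4. Even there Ddit3 was below the normal lungs, at -0.98. Tumours 1, 2 and 6 were each the lowest tumour for 3 of the 10 genes, where 16.4%, 20.3% and 20.1% of all genes were lowest in them. Those of tumour 2 were Dnajb9, Herpud1 and Trib3, with differences of -0.74, -1.37 and -0.18. On the second Trib3 probe set the difference of tumour 2 was 0.63. On its brightest probe set Pdia4 separated tumours 4, 5 and 6, at 1.62 to 1.70, from tumours 1, 2 and 3, at 0.56 to 1.06. The dim other Pdia4 probe set lacked this split, with tumour 3 highest (108.2) and tumours 4 and 2 at 33.2 and 33.5. The SD of log2 signals was wider in tumours than in normal lungs for 9 of the 10 genes, as it was for 69.4% of all genes, and widest for Herpud1 (0.60 in tumours, 0.29 in normal lungs).

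**Figure D4:**
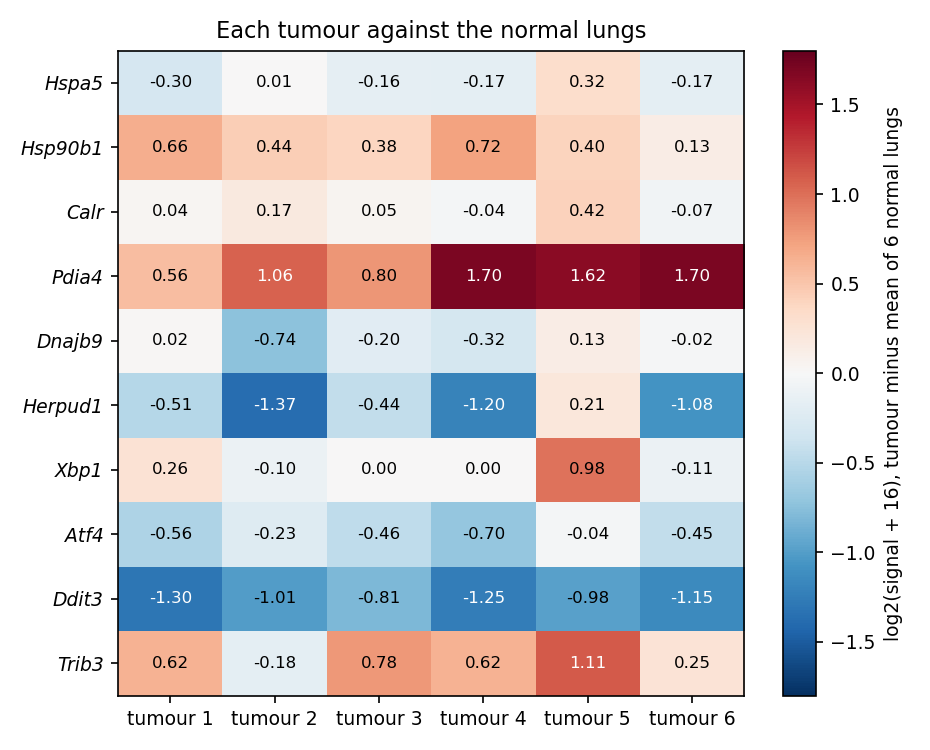
Difference of each tumour (columns) from the mean of the 6 normal lungs for the 10 genes (rows), on the log2(signal + 16) scale; red is higher and blue lower in the tumour. The Ddit3 row is negative in all 6 tumours (-1.30 to -0.81) and the Pdia4 row positive (0.56 to 1.70), while Xbp1 is near 0 except in tumours 1 (0.26) and 5 (0.98).

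Markers of secretory and other cells were read on the same arrays, where 12.2% of all genes rose and 17.5% fell. Among the brighter genes 17.7% rose and 22.3% fell. In bulk tissue, fewer cells of a type and less RNA per cell cannot be told apart. Of 12 type II cell markers 5 rose (41.7%) and 0 fell, with 1 to 11 and 0 to 1 over the other settings. Their mean log2 signal was 12.36 to 13.92 in tumours and 12.52 to 12.75 in normal lungs. It was lowest in tumours 2 and 6 (12.61 and 12.36), which also had the lowest signals on the brightest Trib3 probe set. On the second Trib3 probe set tumour 4 was lowest (194.3), and tumours 2 and 6 were at 293.0 and 237.8. Of 10 plasma cell markers 2 rose (20.0%), Sdc1 and Txndc5, and Prdm1 fell (10.0%). Their means were 8.26 to 10.47 in tumours and 9.03 to 10.24 in normal lungs, with tumour 5 at 9.08. Sdc1, a surface proteoglycan also made by epithelial cells, had 10944 to 24999 in tumours and 1626 to 2987 in normal lungs, Txndc5 is also in the isomerase list, and the antibody genes Jchain (0.07 ± 0.62) and Ighm (-0.67 ± 0.73) did not pass. All 15 endothelial markers fell, with means of 8.81 to 10.18 in tumours and 12.33 to 12.73 in normal lungs. Of 11 alveolar macrophage markers 7 rose (63.6%) and 1 fell (9.09%), with means of 10.76 to 12.68 in tumours and 9.82 to 10.45 in normal lungs. The part of these cells in the differences of the 10 genes was not tested.

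The other genes of the pathway were counted in lists chosen by function. Of 17 measured sensors and regulators, 5 fell (29.4%, against 17.5% of all genes and 22.3% of the brighter genes). A rise was called in 1 (5.88%, against 12.2% and 17.7%). The falls included Atf6 (-0.90 ± 0.10, adjusted p = 1.20e-05), the sensor that yields a chaperone activator, Nck1 (-0.59 ± 0.12) and Ppp1r15a (-0.78 ± 0.18), the stress-induced subunit that dephosphorylates eIF2. Creb3l1, an ER-bound transcription factor related to ATF6, rose (1.74 ± 0.33). The PERK gene Eif2ak3 was at -0.10 ± 0.15 and the IRE1 gene Ern1 at 0.43 ± 0.15 (adjusted p = 0.0505), neither past the threshold. The list's median was -0.09, against -0.08 over all genes, and over the other settings 1 to 3 were higher and 2 to 6 lower.

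Of 23 other ER lumen chaperones 3 rose (13.0%, against 12.2% of all genes and 17.7% of the brighter genes). A fall was called in 1 (4.35%, against 17.5% and 22.3%), and the median of the list was 0.03. Over the other settings 1 to 7 were higher and 1 to 3 lower. Sdf2 (0.48 ± 0.12) and Prkcsh (0.41 ± 0.11), the beta subunit of glucosidase II, rose. Canx, the membrane partner of calreticulin, rose by 0.39 ± 0.10, and Rcn3, a calcium-binding protein, fell (-1.44 ± 0.24). Hyou1 and Manf, which are induced with Hspa5 in ER stress, were at -0.02 ± 0.13 and -0.04 ± 0.14, neither past the threshold. Among 25 other disulfide isomerases, oxidases and prolyl isomerases 8 rose and 4 fell (median 0.20; 3 to 11 and 2 to 4 over the other settings, with 5 higher after quantile normalization and 3 with Eif2s3y as a covariate), with P4hb at 0.82 ± 0.13 and Prdx4, an ER peroxidase, at 1.33 ± 0.23 among the rises and Fkbp7 (-1.16 ± 0.13) and Fkbp14 (-0.98 ± 0.17) among the falls. ER-associated degradation genes rose in 4 (15.4%) and fell in 3 (11.5%) of 26 cases, with a median of 0.08. Over the other settings 2 to 6 of them were higher and 1 to 5 lower. Derl2, of the channel through which misfolded proteins leave the ER, rose (0.57 ± 0.10), and Ube2g2, a ubiquitin-conjugating enzyme, fell (-0.66 ± 0.12).

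Known targets of ATF4 and CHOP rose in 8 (30.8%, against 12.2% of all genes) and fell in 3 (11.5%, against 17.5%) of 26 cases. Among the genes brighter than the median probe set the shares were 17.7% and 22.3%. Atf4 and Ddit3 themselves fell on their brightest probe sets, and neither call held for the mean of their probe sets (-0.20 and -0.07). The median of the targets was 0.23, and over the other settings 6 to 9 of them were higher and 2 to 4 lower. The rises included the serine synthesis genes Phgdh (1.56 ± 0.25) and Psat1 (1.28 ± 0.17) and the proline synthesis gene Aldh18a1 (1.25 ± 0.18). The falls were Atf5 (-1.56 ± 0.14), Slc3a2 (-0.83 ± 0.16) and Cebpb (-0.48 ± 0.16). Chac1 and Asns, which ATF4 is known to induce, were at -0.65 ± 0.23 (adjusted p = 0.0578) and -0.14 ± 0.17, neither past the threshold. Of 19 cytosolic tRNA synthetases 7 rose (36.8%) and 2 fell (10.5%), with a median of 0.35. Hars (0.79 ± 0.14) and Qars (0.75 ± 0.14) were among the rises and Yars (-0.67 ± 0.12) among the falls. Genes of the translocon, signal peptidase and glycan transfer rose in 7 and fell in 2 of 25 cases (median 0.20; 4 to 13 and 1 to 3 over the other settings), with Ssr4 (0.86 ± 0.11) and Sec61a1 (0.86 ± 0.15). Genes of ER to Golgi transport rose in 5 (22.7%) and fell in 1 (4.55%) of 22 cases, with a median of 0.22. Over the other settings 3 to 11 of them were higher and 0 to 2 lower. The cargo receptor gene Surf4 (0.78 ± 0.14) and the retrieval receptor genes Kdelr3 (1.09 ± 0.21) and Kdelr1 (0.66 ± 0.13) were among the rises. Cytosolic and mitochondrial heat shock genes rose in 3 and fell in 7 of 20 cases (median -0.30; 2 to 6 and 4 to 8 over the other settings), with Hspb1 (-2.41 ± 0.28) and Hsph1 (-1.55 ± 0.30) falling.

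**Figure D5:**
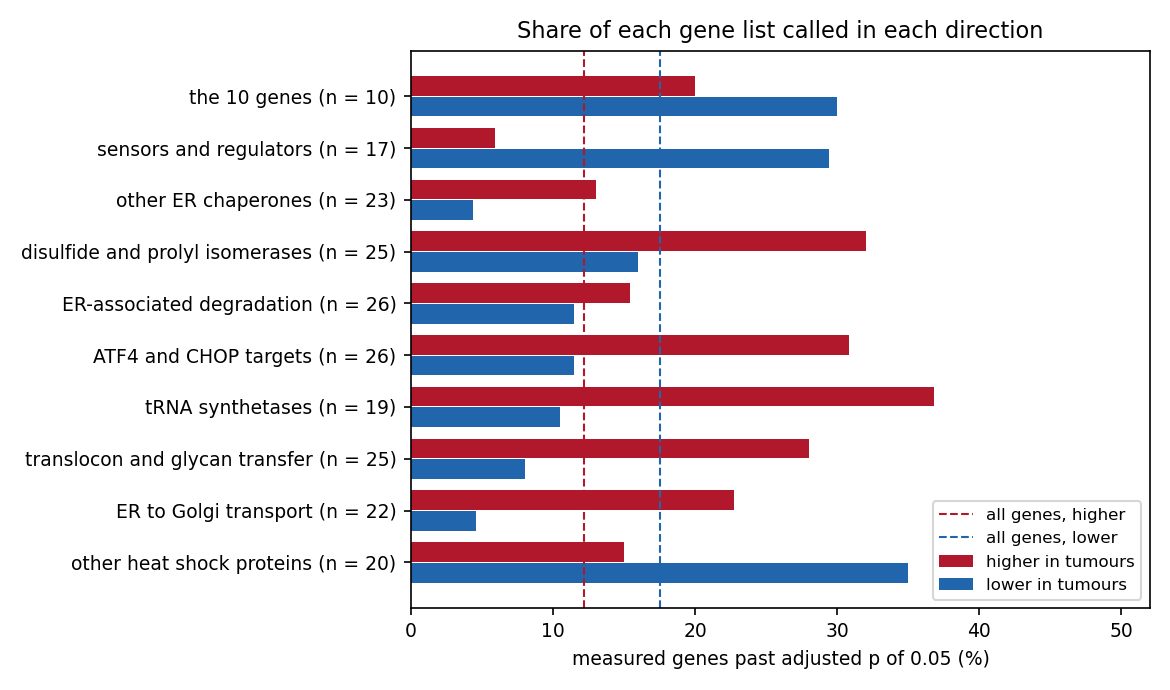
Share of the measured genes of each list that passed an adjusted p of 0.05 (percent), in red for higher and in blue for lower in tumours; dashed lines mark the shares over all genes, 12.2% and 17.5%. The tRNA synthetase list has the largest share of higher genes of the 10 lists drawn (36.8%) and the cytosolic and mitochondrial heat shock list the largest share of lower genes (35.0%).

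The ERSE letters were set beside the differences. Of 49 genes with ERSE or ERSE-II letters 29 were measured, 4 of them members and 8 in the lists of sensors, chaperones, isomerases and degradation genes. Of the 29, 5 were higher (17.2%), 3 lower (10.3%) and 21 did not pass, where the shares over all genes are 12.2% and 17.5% and over the brighter genes 17.7% and 22.3%. The 4 members with these letters were split, with Hsp90b1 higher, Herpud1 lower and Hspa5 and Calr not past the threshold. The rises in the lists were Canx (0.39 ± 0.10) and Pdia6 (0.43 ± 0.14), and Creld2, Derl3, Dnajb11, Dnajc3, Ero1b and Syvn1 had differences between -0.45 and 0.30 that did not pass.

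The genes most like Hspa5 and Trib3 in their deviations from the group means over the 12 arrays were taken from 11516 brighter genes. Those most like Hspa5 were Ist1, Pdia3, Brf2, Spin1 and H13, with Pearson r of 0.893 to 0.934. Pdia3, an ER disulfide isomerase of the same folding system, rose by 0.40 ± 0.12 and H13 by 1.24. Ist1 (0.08), Brf2 (-0.09) and Spin1 (-0.33) did not pass the threshold. Those most like Trib3 were Vkorc1, Mthfd1, Cbx7, Clpb and Selenop, with r of 0.903 to 0.934. Of these Cbx7 fell (-0.96), Clpb rose (0.69) and the others did not pass. The correlations describe the 12 arrays, share each array's scaling and depth of signal, and are the highest of a large search.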

How the data were processed

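The authors deposited 1 MAS5 signal intensity per probe set and array, on a linear scale, per the submitters' processing notes; the MAS5 version and settings are not given in the sources used here. The 2% trimmed mean was equal on all 12 arrays and no value was missing, so their scaling was kept. Of 45101 probe sets 64 array controls were left out. Gene symbols are those of GEO's platform annotation, and 34741 of 34945 probe sets with a single symbol matched mouse RefSeq (GRCm38.p6) by gene identifier.

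The log2 of signal plus an offset of 16, which shrinks differences between dim values, was tested per probe set with limma 3.58.1 under R 4.3.3 (eBayes with trend). The model held only the group, with 6 tumour and 6 normal arrays. P-values are two-sided and adjusted by Benjamini-Hochberg over the 45037 probe sets, with a threshold of 0.05. The model was tested on simulated data, where it missed small changes more often than large ones, so that a gene which did not pass may still differ. Array correlations were 0.907 to 0.954 among tumours, 0.932 to 0.966 among normal lungs and 0.868 to 0.919 between the groups. The number of arrays limits the precision.

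The members, the gene lists and the tests were chosen with earlier results of these data known. All members are named, and in each other list up to 4 genes with the smallest adjusted p, or those of the rarer direction. Eif2ak3, Ern1, Hyou1, Manf, Chac1, Asns, Pdia6, Creld2, Dnajb11, Dnajc3, Derl3, Ero1b, Syvn1, Jchain, Ighm and the motifs were chosen after their values were seen. Other settings changed the offset (1 or 64), the scaling (quantile or median), the filter on dim probe sets, the trend, the array weights, the replicate number as a block, the choice of probe set, and the arrays left out. Another 4 were chosen after seeing the data, namely no normal lungs 2 and 4, no tumours 2 and 6, no tumours 1, 2, 3 and 5, and a covariate for Eif2s3y. Figures were drawn with Python 3.11.15 and matplotlib 3.10.9.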

Additional observations from a re-analysis of the deposited data

Results flagged for a closer look

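Among 52 groups of 6 values tested for a lone high or low array by Dixon's criterion, 4 had one, where chance gives about 1 in 20. Xbp1 was far higher in tumour 5 (28590) than in the next tumour. The mean log2 signal of the other disulfide isomerases, ER oxidases and prolyl isomerases was high in tumour 5 (10.88, against 10.52 to 10.64 in the other tumours). The mean of the sensors and regulators of the unfolded protein response was high in normal lung 2 (9.69, against 9.36 to 9.48 in the other normal lungs). The mean of the neutrophil markers was high in normal lung 1 (12.94). Without tumour 5 the same members were called as with all arrays, 2 higher and 3 lower.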

How the results depend on the processing

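Under 25 other settings, 4 of them added after seeing the data, the call of Ddit3 and that of Pdia4 were lost only with the mean of a gene's probe sets, and Xbp1, Calr and Dnajb9 were called under none. Hsp90b1 lost its call in 8, Atf4 in 13 and Herpud1 in 13 of them, all without a change of sign; Trib3 gained one in 6 and Hspa5 in 1. The count of members higher, 2 as reported, was 1 with the replicate number as a block and with Eif2s3y as a covariate. It was also 1 without normal lungs 2 and 4 and in tumours 4 and 6 alone. After median centring, with array weights and without tumours 2 and 6 it was 3. The count of members lower, 3 as reported, was 1 after median centring, without the intensity trend and with the replicate block. It was also 1 without normal lungs 2 and 4, 0 with the mean of probe sets and 4 after quantile normalization. With 1 array left out, 1 to 3 members were higher and 1 to 3 lower, and over all genes 1905 to 2319 were higher and 2855 to 3267 lower. Over all genes 2216 were higher and 3176 lower as reported, while 3498 were higher and 2341 lower after median centring and 1320 were higher with the covariate. Of 800 list counts under alternatives 131 moved by over 1.5 times. The replicate numbers did not pair the samples (correlation of deviations -0.0178 to 0.0217). With the replicate block Hsp90b1, Herpud1 and Atf4 lost their calls (adjusted p 0.0746, 0.0689 and 0.0901). The causes were not tested.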
